A study of Mus musculus with 91 samples.

Results

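Small RNA libraries of semi-cloned (SC) mouse embryos at embryonic day 6.5 (E6.5) were compared between embryos that had lost DNA methylation and wild-type (WT) embryos. The members were chosen by sample title and are 3 libraries titled Dnmt-TKO-SC, called Dnmt-null SC here, and 3 titled WT-SC, 6 of the 91 libraries of the series. An SC embryo grows from an oocyte injected with an androgenetic haploid embryonic stem cell (AG-haESC), which carries a sperm genome and takes the place of sperm. The series measured mature miRNAs in epiblast (Epi), extraembryonic ectoderm (Exe), AG-haESCs and SC embryos that differ in their DNA methyltransferases, to ask how methylation bears on miRNA levels around gastrulation.

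Both groups derived from WT AG-haESCs and came, by their labels, from a C57BL/6 male and an F1 female. In the Dnmt-null SC embryos Dnmt1, Dnmt3a and Dnmt3b, which encode the methyltransferases that maintain and set DNA methylation, were inactivated in the embryo itself with a cytosine base editor that writes stop codons. The cultured AG-haESCs lose methylation of the paternal H19 and IG control regions, so the WT SC embryos also start with hypomethylated copies of these regions. The tissue label reads semi-cloned embryo for all 6 libraries, whereas the study describes SC libraries of this stage as epiblast. How many embryos went into each library, and whether both groups came from 1 AG-haESC line, is not given in the sources used here. The 3 targeted genes encode proteins, so miRNA counts do not check the genotype. Another SC group at E6.5, DKO-SC, from AG-haESCs that lack the H19 and IG control regions, entered the fit to estimate the spread. Direction was compared with naturally fertilised E6.5 Epi, 4 Dnmt-null libraries (TKO) made by editing the same 3 genes in zygotes and 4 control libraries. E6.5 Epi libraries of Dnmt1-KO and Dnmt3a/3b-DKO embryos entered that natural fit only to estimate the spread.

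A mature miRNA of about 22 bases guides a silencing complex to messenger RNAs that pair with its seed, bases 2 to 8. Many miRNAs are cut from shared precursors encoded in clusters, so neighbours often change together. The miR-302 cluster, which also encodes miR-367, and the miR-290-295 cluster are the main miRNAs of pluripotent cells and share a seed. The X-linked cluster around miR-465, miR-743 and miR-878 is known for its expression in male germ cells, and the Dlk1-Dio3 cluster is imprinted and expressed from the maternal chromosome, where the IG control region is unmethylated.

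The mature sequences that carry the main differences are printed first, as given by RefSeq for GRCm38.p6, with the seed in capitals. The first set is the X-linked germline miRNAs that differed most clearly or were most abundant, in order to show that their seeds are largely unlike each other:
miR-465c-5p: uAUUUAGAauggcgcugaucug
miR-465a-5p: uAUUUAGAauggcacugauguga
miR-465a-3p: gAUCAGGGccuuucuaaguaga
miR-878-5p: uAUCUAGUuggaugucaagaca
miR-878-3p: gCAUGACAccacacuggguaga
miR-741-3p: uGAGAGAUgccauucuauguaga
miR-871-3p: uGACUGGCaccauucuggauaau
miR-470-5p: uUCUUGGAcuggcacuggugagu
miR-743a-3p: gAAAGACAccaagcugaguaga
miR-743b-3p: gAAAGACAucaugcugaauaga
miR-880-3p: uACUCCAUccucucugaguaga
The 23 tested members of this cluster held 17 seeds, of which 13 belonged to 1 member, 2 to 2 members and 2 to 3. The 5p arms of the miR-465 genes share AUUUAGA, and miR-465a-3p, miR-465b-3p and miR-465c-3p have one and the same mature sequence. Their counts were the same or nearly so and are taken as 1 measurement.

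The second set is members of the miR-302 cluster and 2 miRNAs from other clusters that share their seeds:
miR-302b-3p: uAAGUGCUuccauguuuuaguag
miR-302d-3p: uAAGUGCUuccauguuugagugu
miR-295-3p: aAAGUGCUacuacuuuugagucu
miR-302a-5p: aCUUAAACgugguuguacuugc
miR-302c-5p: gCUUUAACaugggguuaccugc
miR-367-3p: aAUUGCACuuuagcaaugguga
miR-363-3p: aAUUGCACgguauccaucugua
The seed AAGUGCU is common to miR-302b-3p, miR-302d-3p, miR-291a-3p, miR-294-3p and miR-295-3p, and AUUGCAC to miR-367-3p, miR-363-3p, miR-25-3p, miR-32-5p, miR-92a-3p and miR-92b-3p. The third set is 4 miRNAs of the Dlk1-Dio3 cluster, the most abundant ones and the ones with the clearest differences:
miR-127-3p: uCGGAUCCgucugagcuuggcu
miR-541-5p: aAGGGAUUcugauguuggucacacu
miR-300-3p: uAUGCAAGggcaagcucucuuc
miR-377-3p: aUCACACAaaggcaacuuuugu

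The table held 1504 mature miRNAs and the 6 libraries summed to 154061 to 522390 counts. Library 3 of WT-SC stood apart from the other libraries, so the counts and the values that turn on it are given with and without it. It held a count for 444 miRNAs against 598 to 702 in the other 5 libraries. Its log2 CPM correlated with WT-SC replicates 1 and 2 at r = 0.79 and 0.78 across miRNAs, against 0.96 between this pair. Its most abundant miRNA was miR-541-5p with 14.4% of counts, where miR-302b-3p led the other 5 libraries with 8.05 to 20.9%. Over 369 miRNAs with a sequence, its log2 difference from the other WT libraries correlated with the GC percent at r = 0.27, and the part of this in the results was not tested. Dnmt-null replicate 2 held the largest share of Sfmbt2 intronic miRNAs and the smallest share of germline miRNAs of its group, as described below.

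The edgeR quasi-likelihood fit tested 461 miRNAs that passed a filter on low counts, and 1043 were not tested. A miRNA passed when its log2 fold change, Dnmt-null over WT, exceeded 0.5 in size with an unadjusted p under 0.05, the thresholds of the study. In the Dnmt-null SC embryos 46 miRNAs were higher (9.98% of those tested) and 41 were lower (8.89%). After Benjamini-Hochberg adjustment over all 461, 7 (1.52%) were higher and 0 lower at an adjusted p under 0.05, whereas 87 had an unadjusted p under 0.05. DESeq2 called 23 higher and 18 lower after adjustment. The adjusted edgeR count was 0 without WT-SC replicate 1, Dnmt-null replicate 1 or Dnmt-null replicate 3, and 8 and 9 higher without WT-SC replicate 2 or Dnmt-null replicate 2. It was also 0 with only the 2 groups, where DKO-SC did not add to the spread. The median log2 fold change of all tested miRNAs was 0.06.

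The 7 miRNAs were 6 germline miRNAs of the X chromosome, which are 4 distinct sequences because miR-465a-3p, miR-465b-3p and miR-465c-3p are the same, and miR-375-3p, an islet and endoderm miRNA. When WT-SC replicate 3 was left out, 505 miRNAs were tested, 73 were higher (14.5%) and 67 lower (13.3%), and the adjusted test called 27 (5.35%) and 28 (5.54%). The 2 sets of higher miRNAs shared 39, which is 84.8% of the 46 and 53.4% of the 73. Those lower shared 29, or 70.7% of the 41 and 43.3% of the 67. This fit moved the median of all miRNAs by -0.22 on the log2 scale. When it held only the 2 groups, so that DKO-SC did not add to the spread, 44 of 451 rose and 36 fell, with 0 after adjustment. Reads are counted relative to the library total, so fewer cells of a type and less RNA per cell cannot be told apart in any of these values.

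The X-linked germline miRNAs had the largest median increase of the lists examined. Of 38 mature miRNAs from 20 genes, at chrX:66776757-67988451 (GRCm38), 23 were tested, 19 rose and 0 fell, and 18 of the 23 had every Dnmt-null library above every WT library (14.1% of all tested miRNAs did). Their median log2 fold change was 2.10, with a range of 1.13 to 3.19. Leaving out WT-SC replicate 3, all 24 tested members rose, 19 of them at an adjusted p under 0.05, with a median of 1.92. With all libraries 6 members, or 4 distinct sequences, had an adjusted p under 0.05, and 16 to 24 members rose when any 1 library was left out, although 0 then had an adjusted p under 0.05 in the 3 cases named above. The other 15 members of the list were not tested in the fit on all libraries.

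**Figure D1:**
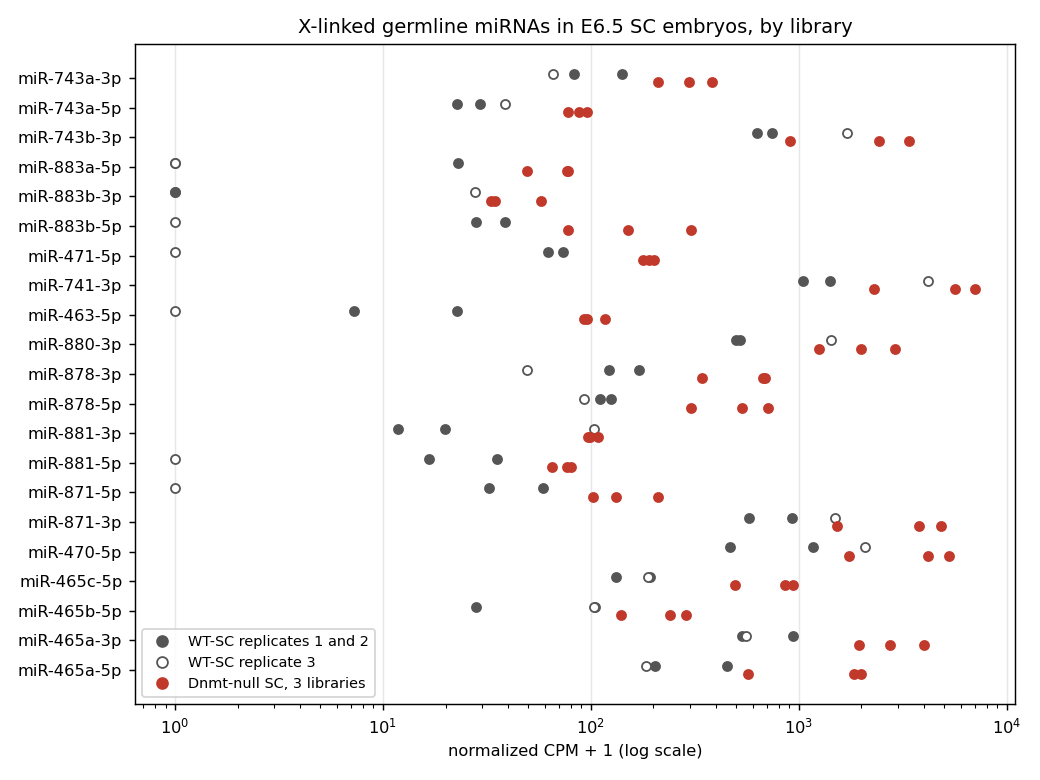
Normalized CPM plus 1 (log axis) of X-linked germline miRNAs, 1 row per miRNA and 1 point per library, with WT-SC replicate 3 as an open point and Dnmt-null SC in red. miR-465b-3p and miR-465c-3p are left out because they share the sequence of miR-465a-3p. The red points lie to the right of the filled grey points in all 21 rows drawn.

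Levels are given as normalized CPM, library-size-scaled counts (CPM, scaled further by the TMM factors of edgeR), in the order of replicates 1, 2 and 3. miR-465c-5p was at 191, 132 and 188 in WT-SC and at 940, 494 and 860 in Dnmt-null SC. The groups did not overlap, and the log2 fold change was 2.17 (SE 0.35, adjusted p = 0.0155, 3 libraries per group). miR-465a-3p, the shared product of 3 genes, was at 530, 935 and 559 in WT-SC and at 4014, 1941 and 2752 in Dnmt-null SC. Here too each Dnmt-null library exceeded each WT library, and the log2 fold change was 2.10 (SE 0.37, adjusted p = 0.0155). miR-465a-5p was at 452, 202 and 183 in WT-SC and at 1982, 568 and 1838 in Dnmt-null SC, a log2 difference of 2.39 (SE 0.53) that did not reach the adjusted threshold (adjusted p = 0.062). The 3 values were 2.15, 1.87 and 2.07 without WT-SC replicate 3, each past the adjusted threshold.

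Both arms of miR-878, a gene of the same cluster, rose. miR-878-5p was at 110, 124 and 91.3 in WT-SC and at 707, 302 and 531 in Dnmt-null SC (log2 fold change 2.22, SE 0.37, adjusted p = 0.0155). miR-878-3p was at 169, 121 and 48.4 in WT-SC and at 688, 340 and 668 in Dnmt-null SC (2.30, SE 0.46, adjusted p = 0.0358). In all of these, Dnmt-null replicate 2 had the smallest increase.

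In the other 5 tested members WT-SC replicate 3 overlapped with the Dnmt-null libraries, 4 of them abundant ones. miR-741-3p, the most abundant one, was at 1417, 1043 and 4202 in WT-SC and at 7068, 2310 and 5614 in Dnmt-null SC. Its log2 difference of 1.17 (SE 0.56) did not pass, and without that library it rose by 1.92 (adjusted p = 0.0179). miR-743b-3p was at 630, 746 and 1709 in WT-SC and at 3401, 908 and 2432 in Dnmt-null SC, and it also passed in the fit without that library alone (1.13 and 1.59). miR-470-5p, at 1173, 465 and 2074 against 5295, 1749 and 4179, rose with all libraries (log2 fold change 1.60, SE 0.55) although replicate 3 of WT-SC lay above replicate 2 of Dnmt-null SC. miR-871-3p was at 922, 577 and 1494 against 4853, 1521 and 3766, just short of an overlap, and rose by 1.76 (SE 0.48). miR-880-3p was at 495, 519 and 1424 against 2909, 1255 and 1995, with one overlapping pair, and rose by 1.34. These 3 rose by 2.11, 2.08 and 1.91 without WT-SC replicate 3.

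The 4 tested members that did not pass with all libraries were miR-741-3p, miR-743b-3p, miR-881-3p and miR-883b-3p. miR-881-3p was at 18.8, 10.8 and 102 in WT-SC and at 107, 96.3 and 98.5 in Dnmt-null SC. Low members can be read only roughly, since 3 counts correspond to 5.74 to 19.5 CPM in these libraries. miR-883b-3p had 0, 0 and 5 counts in WT-SC and 9, 10 and 14 in Dnmt-null SC. miR-463-5p rose from 6.27, 21.6 and 0 to 94.7, 116 and 91.3 normalized CPM. miR-883a-5p, at 21.9, 0 and 0 in WT-SC and at 75.7, 48.1 and 76.9 in Dnmt-null SC, rose as well.

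As a share of all miRNA counts the germline group took 0.72, 0.76 and 0.97% in WT-SC and 4.28, 2.07 and 3.29% in Dnmt-null SC. The means were 0.816 ± 0.134% (SD, n = 3) and 3.22 ± 1.104% (SD, n = 3), and the ranges did not overlap (two-sided exact permutation test, p = 0.1, the smallest that 3 against 3 allows). The WT mean without replicate 3 was 0.739%. In the DKO-SC libraries, where the methyltransferases were not edited, the share was 0.69 to 0.76%. In natural E6.5 Epi it was 0.397 ± 0.169% in controls and 2.28 ± 0.806% in Dnmt-null libraries (SD, n = 4 each), again with no overlap (exact permutation test, p = 0.0286, the smallest that 4 against 4 allows). Taken as pairs by replicate number, the share was higher in the Dnmt-null library in 4 of 4 pairs (exact permutation test over pairs, p = 0.125, the smallest that 4 pairs allow). The natural shares of miR-302, miR-290-295 and Dlk1-Dio3 given below also differed in 1 direction each in 4 of 4 pairs, with the same paired p.

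The germline miRNAs went the same way in natural Epi. There 21 were tested, 14 rose (14.9% of all tested miRNAs did) and 0 fell, with a median log2 fold change of 1.98, and each of the 20 tested in both kinds of embryo had a positive fold change in both. miR-465a-3p was higher by 2.89 in natural Epi (SE 0.50, adjusted p = 0.000469), miR-741-3p by 1.93 and miR-470-5p by 3.13. The difference between the SC and natural fold changes had an unadjusted p under 0.05 for 1 of 24 germline miRNAs, and for 0 without WT-SC replicate 3. None of these differences reached an adjusted p under 0.05.

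Markers of another cell type were read beside this group. Natural Exe controls carried a germline share of 1.12 ± 0.461% (SD, n = 4), above the Epi controls. The 28 miRNAs that were over 4 times higher in natural Exe than in Epi controls, a list drawn from those libraries, took 1.31, 1.35 and 0.74% of counts in WT-SC and 1.80, 4.22 and 1.93% in Dnmt-null SC, against 7.01% in Exe and 1.44% in Epi controls. Dnmt-null replicate 2, with the largest Exe share, had the smallest germline share. Without replicate 2 of Dnmt-null SC, 8 germline miRNAs had an adjusted p under 0.05. The part of Exe material in the result was not tested.

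miR-375-3p, encoded on chromosome 1 and abundant in pancreatic islets and gut epithelium, was the other miRNA past the adjusted threshold. It was at 50.2, 70.3 and 26.9 normalized CPM in WT-SC and at 372, 209 and 276 in Dnmt-null SC. The groups did not overlap, and it rose by 2.48 on the log2 scale (SE 0.42, adjusted p = 0.0155), by 2.11 without WT-SC replicate 3 (adjusted p = 0.010) and by 3.15 in natural Epi (adjusted p = 0.0167). Leaving out any 1 library gave 2.11 to 2.89, past the adjusted threshold in 3 of 6 cases.

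It belongs to a list of 11 endoderm miRNAs, of which 5 were tested and 2 rose (9.98% of all tested miRNAs did). The second was miR-194-5p (log2 fold change 1.09, and 0.99 without WT-SC replicate 3), a gut and liver miRNA, at 160, 213 and 177 in WT-SC and at 265, 558 and 346 in Dnmt-null SC. miR-192-5p, encoded beside a miR-194 gene and the most abundant of the list, was at 1696, 1582 and 2799 in WT-SC and at 2650, 2897 and 3172 in Dnmt-null SC and did not pass (0.52, SE 0.31). All 5 rose when WT-SC replicate 3 was left out (14.5% of all tested miRNAs did). In natural Epi 3 were tested and 1 rose (14.9% of all did). The list took 0.209 ± 0.026% of counts in WT-SC and 0.421 ± 0.061% in Dnmt-null SC (SD, n = 3 each, exact permutation test, p = 0.1). The part of endoderm cells in the level of miR-375-3p was not tested.

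The pluripotency cluster miR-302, on chromosome 3, was lower in Dnmt-null SC embryos than in WT-SC replicates 1 and 2, and this comparison turned on WT-SC replicate 3. Of 10 mature miRNAs 9 were tested, all with a negative log2 fold change from -0.97 to -0.46, and 1 fell. Without WT-SC replicate 3 all 9 fell (13.3% of all tested miRNAs did), 8 at an adjusted p under 0.05, with a median of -1.29 in place of -0.72. With only the 2 groups as well, all 9 still fell and 0 had an adjusted p under 0.05. Every member lay below WT-SC replicates 1 and 2 in each Dnmt-null library, and none lay below all 3 WT libraries.

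**Figure D2:**
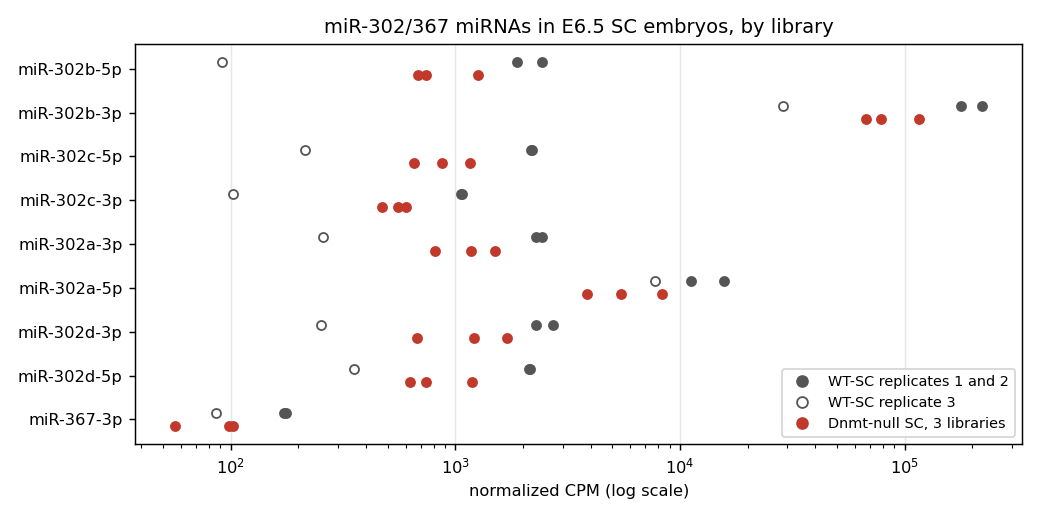
Normalized CPM (log axis) of the 9 tested miR-302 miRNAs, 1 row per miRNA and 1 point per library, with WT-SC replicate 3 as an open point and Dnmt-null SC in red. The red points lie to the left of the filled grey points in each row, and the open point lies to the left of the grey points too.

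miR-302b-3p was the most abundant miRNA of both groups. It was at 221202, 177969 and 28793 normalized CPM in WT-SC and at 78252, 67084 and 115393 in Dnmt-null SC. WT-SC replicate 3 was the lowest of the 6, and the other WT libraries the highest. The log2 difference was -0.71 (SE 0.61, adjusted p = 0.533) with all libraries, and without that library it fell by 1.30 (SE 0.20, adjusted p = 0.010).

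miR-302a-5p was the member that fell with all libraries (-0.97, SE 0.38, adjusted p = 0.232). It was at 15678, 11190 and 7705 in WT-SC and at 5452, 3873 and 8344 in Dnmt-null SC, so only Dnmt-null replicate 3 exceeded WT-SC replicate 3. miR-367-3p, with the AUUGCAC seed, was at 176, 173 and 86.0 in WT-SC and at 56.8, 103 and 98.5 in Dnmt-null SC, with log2 differences of -0.74 with all libraries and -1.06 without replicate 3. miR-302c-5p and miR-302d-5p moved from -0.77 and -0.86 to -1.39 and -1.42.

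In natural Epi all 9 tested members fell (11% of all tested miRNAs did), 8 at an adjusted p under 0.05 (4.65% of all), with a median of -1.47. miR-302b-3p fell there by 1.24 and miR-367-3p by 3.43. The cluster took 23.6, 21.4 and 2.73% of counts in WT-SC, 9.05, 9.56 and 13.5% in Dnmt-null SC and 19.8 to 21.7% in DKO-SC. The Dnmt-null mean of 10.7 ± 2.44% did not differ from the WT mean of 15.9 ± 11.5% beyond the spread (SD, n = 3 each, exact permutation test, p = 0.4), and the WT mean without replicate 3 was 22.5%. The natural Epi shares were 19.7 ± 3.99% in controls and 9.19 ± 2.89% in Dnmt-null libraries (SD, n = 4 each, exact permutation test, p = 0.0286). Exe controls carried 2.45 ± 0.665% (SD, n = 4).

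The miR-290-295 cluster, which shares the AAGUGCU seed, gave 0 miRNAs past the thresholds of 18 tested, with all libraries and without WT-SC replicate 3. miR-295-3p was at 49195, 42141 and 3573 normalized CPM in WT-SC and at 34980, 41772 and 43450 in Dnmt-null SC. WT-SC replicate 3 lay far below the other 5 libraries, which covered a narrow range. The log2 difference was 0.34 with all libraries and -0.27 without that library. In natural Epi 8 of 17 tested members fell, miR-295-3p by 1.04 among them.

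The difference between the SC and natural fold changes had an unadjusted p under 0.05 for 1 of 18 members, for 4 without WT-SC replicate 3 and for none after adjustment. The cluster took 11.44, 11.01 and 2.73% of counts in WT-SC and 9.75, 14.29 and 11.03% in Dnmt-null SC (exact permutation test of the group means, p = 0.5). In natural Epi it took 18.2 ± 0.933% in controls and 10.5 ± 3.34% in Dnmt-null libraries (SD, n = 4 each, exact permutation test, p = 0.0286).

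The Dlk1-Dio3 miRNAs on chromosome 12 were 113 mature miRNAs of 58 genes between Dlk1 and Dio3 (chr12:109563692-110278129, GRCm38). Few passed with all 6 libraries, and the difference in their share of counts turned on WT-SC replicate 3. It was 3.05 percentage points with that library and 10.2 without it (31.0% in Dnmt-null SC against 20.8%). Positive fold changes were found for 56 of 84 tested members with that library and for 71 of 91 without it. The study reports a clear rise of these miRNAs between the same groups. With all libraries 2 of 84 rose and 0 fell (9.98 and 8.89% of all tested miRNAs did). None had an adjusted p under 0.05, and 29 were not tested. Their median log2 fold change was 0.29 against 0.03 for the other miRNAs. All Dnmt-null libraries lay above all WT libraries for 10 members and below for 1 (14.1 and 6.72% of all tested miRNAs). Without WT-SC replicate 3, 12 of 91 rose (14.5% of all tested miRNAs did), 1 at an adjusted p under 0.05 (5.35% of all). The median was then 0.28 against -0.14 for the others. In natural Epi 18 of 80 rose (14.9% of all tested miRNAs did), 11 at an adjusted p under 0.05 (8.31% of all), with a median of 0.29 against -0.36. Of 78 members tested in both kinds of embryo 29 had the same sign with all SC libraries, against 50.6% of all 389 miRNAs.

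The 2 members that rose were miR-377-3p and miR-411-5p, both of the distal cluster around the Mirg transcript. miR-377-3p was at 386, 454 and 113 normalized CPM in WT-SC and at 543, 735 and 757 in Dnmt-null SC (log2 fold change 1.08, SE 0.45, adjusted p = 0.240). miR-411-5p was at 1508, 1611 and 704 in WT-SC and at 1786, 2673 and 2295 in Dnmt-null SC (0.82). In both the groups did not overlap, and WT-SC replicate 3 was the lowest library. Without it miR-377-3p was at 0.60 and still passed, and miR-411-5p was at 0.45 and did not. In natural Epi miR-377-3p was at -0.43 and miR-411-5p at 0.20, and neither passed. miR-300-3p, the one member past the adjusted threshold without that library (0.82, adjusted p = 0.0278), was at 815, 732 and 2939 in WT-SC and at 1470, 1421 and 1468 in Dnmt-null SC, so with all libraries it lay between the WT values.

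Several abundant members were the highest in WT-SC replicate 3. miR-127-3p, an antisense product of the Rtl1 gene, was at 48854, 33200 and 102449 normalized CPM in WT-SC and at 76511, 38300 and 68045 in Dnmt-null SC, and the groups overlapped. Its log2 difference was -0.01 (SE 0.45) with all libraries and 0.48 (SE 0.27) without that library, whereas it rose by 1.36 in natural Epi (SE 0.20, adjusted p = 8.71e-05). miR-541-5p was at 31921, 23540 and 199435 in WT-SC and at 48390, 26002 and 43628 in Dnmt-null SC, so 1 WT library exceeded the Dnmt-null libraries by over 4 times. Its log2 difference was -1.11 (SE 0.71) and, without that library, 0.41 (SE 0.25), against a rise of 1.75 in natural Epi. miR-409-5p was at 6657, 4598 and 39216 in WT-SC and at 10835, 6196 and 10219 in Dnmt-null SC. It rose by 0.60 without replicate 3 and was at -0.89 with it.

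These 3 belong to 6 miRNA genes that the study later deleted, let-7b and 5 of the Dlk1-Dio3 cluster, which were picked from the natural embryos. Of 10 tested mature miRNAs of these genes none passed in SC embryos with all libraries, 1 of 11 rose without WT-SC replicate 3, and 6 of 11 rose in natural Epi. Of all tested miRNAs 14.5% rose without that library and 14.9% in natural Epi. miR-540-3p was at 2145, 1669 and 935 in WT-SC and at 2493, 1964 and 2807 in Dnmt-null SC (0.61, SE 0.34) and rose by 1.99 in natural Epi. miR-409-3p, the other arm of miR-409, was at 16352, 16565 and 26031 in WT-SC and at 26265, 16659 and 23076 in Dnmt-null SC (0.16, SE 0.32). miR-369-3p was at 646, 407 and 86.0 in WT-SC and at 322, 1004 and 656 in Dnmt-null SC, with much overlap, and miR-369-5p differed by 0.45. let-7b-5p, which represses growth and timing genes together with its family, was at 94.1, 91.9 and 107 in WT-SC and at 37.9, 61.0 and 204 in Dnmt-null SC (0.10, SE 0.60). In natural Epi let-7b-5p was at 6.58 to 27.01 in the 4 controls and at 0, 699.6, 112 and 0 in the 4 Dnmt-null libraries, so its rise there of 3.48 (SE 1.17, adjusted p = 0.0547) rested on 2 libraries. With the replicate block it was at 2.40 and did not pass.

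Of the 84 tested miRNAs 82 were grouped by name into 4 blocks along the locus. Both arms of miR-3544, which lies among the miRNAs near Meg3, were in no block and did not pass. Near Meg3 11 were tested and none passed, with and without WT-SC replicate 3, whereas 4 of 11 rose in natural Epi, 2 of them with the replicate block. miR-665-3p, the most abundant of them, was at 3129, 4577 and 1988 in WT-SC and at 3673, 5718 and 4631 in Dnmt-null SC. In the block antisense to Rtl1 none of 12 passed, 2 rose without that library and 5 of 11 rose in natural Epi. Near Rian none of 5 passed in either SC fit and 1 of 5 rose in natural Epi. miR-370-3p, the most abundant there, was at 19071, 15686 and 50279 in WT-SC and at 32986, 14862 and 25883 in Dnmt-null SC. In the block before and within Mirg 2 of 54 rose, 10 of 59 without that library and 8 of 51 in natural Epi. Of all tested miRNAs 9.98% rose with all libraries, 14.5% without WT-SC replicate 3 and 14.9% in natural Epi.

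**Figure D3:**
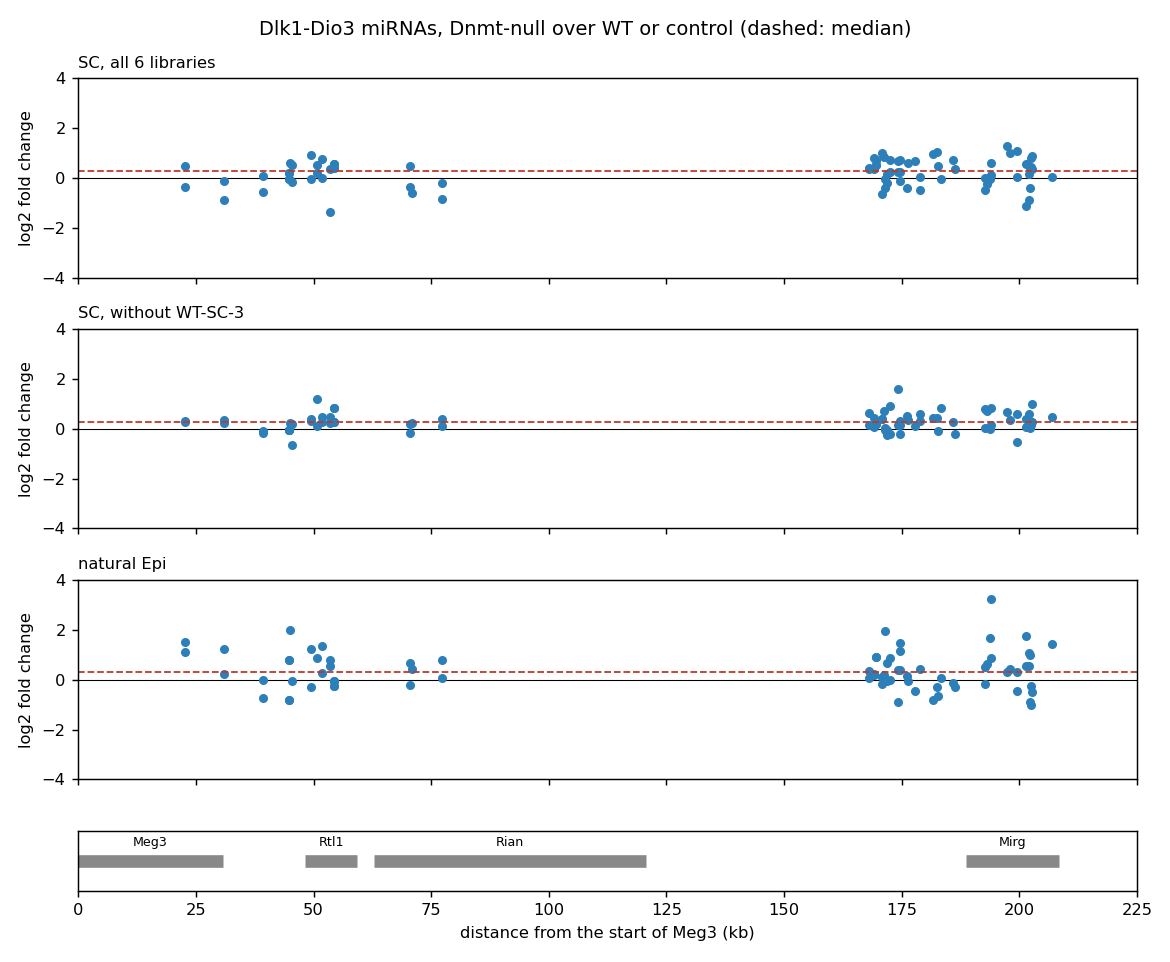
Log2 fold change of Dlk1-Dio3 miRNAs against distance from the start of Meg3 (kb) in 3 comparisons, Dnmt-null over WT SC with all 6 libraries, without WT-SC replicate 3, and Dnmt-null over control in natural Epi, with the gene positions below. The 84, 84 and 78 points scatter about medians of 0.29, 0.27 and 0.29 (dashed lines), and in the panel of all 6 libraries each of the 4 blocks holds points on both sides of 0. Of the 78 miRNAs tested in both kinds of embryo, 29 had the same sign with all 6 libraries as in natural Epi.

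The share of counts on Dlk1-Dio3 miRNAs was 21.2, 20.4 and 42.3% in WT-SC and 33.0, 28.2 and 31.8% in Dnmt-null SC. The means, 28.0 ± 12.4% and 31.0 ± 2.51% (SD, n = 3 each), differed by 3.05 percentage points, less than the spread in WT-SC (exact permutation test, p = 0.8). Each Dnmt-null library lay above WT-SC replicates 1 and 2 and below replicate 3. Without replicate 3 the difference was 10.2 points, and without replicate 1 or 2 of WT-SC it was -0.31 or -0.76 points. DKO-SC libraries, which lack the H19 and IG control regions, held 21.5 to 23.2%. In natural Epi the share was 14.1 ± 0.784% in controls and 26.3 ± 3.35% in Dnmt-null libraries, a difference of 12.2 points (SD, n = 4 each, exact permutation test, p = 0.0286).

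**Figure D4:**
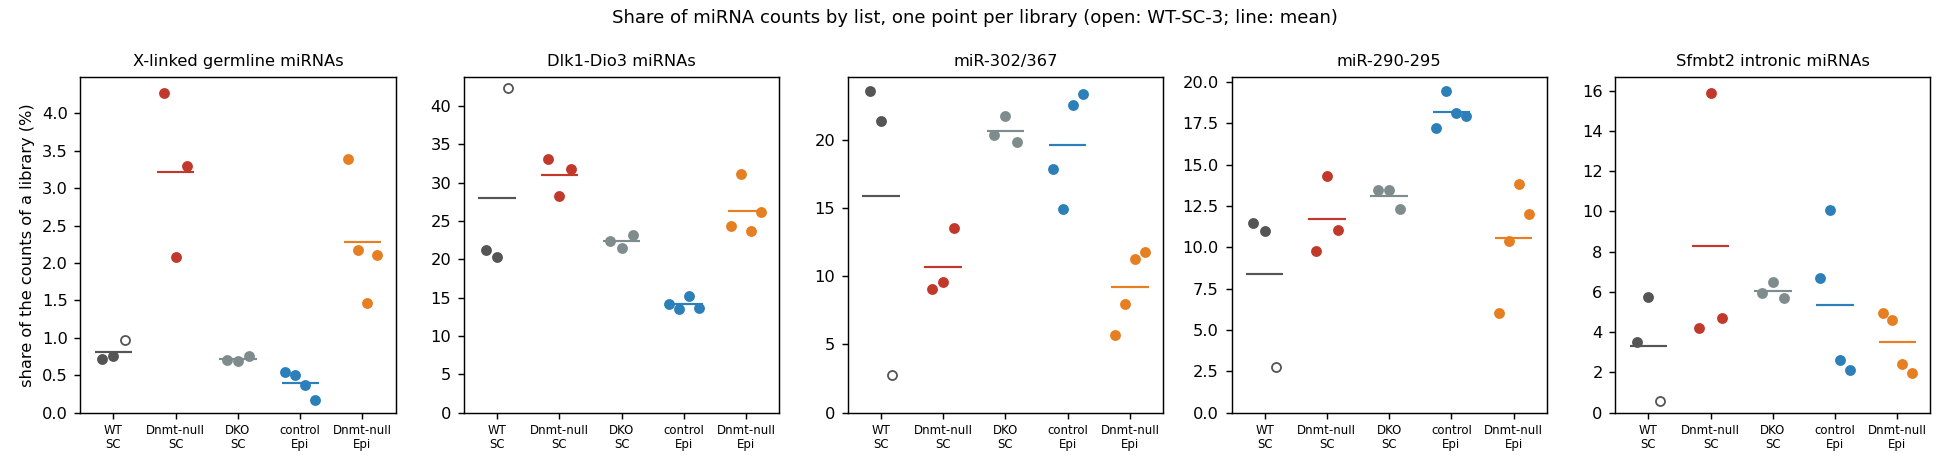
Percent of the counts of a library on 5 groups of miRNAs, 1 panel per group and 1 point per library, with the mean as a line, for WT, Dnmt-null and DKO SC embryos and for control and Dnmt-null natural Epi at E6.5. WT-SC replicate 3 (open point) lies apart from its group in every panel but the first, where it holds 0.97% and all Dnmt-null SC libraries hold at least 2.07%.

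The intronic miRNAs of Sfmbt2, a large repeated family known from the placenta, had mostly positive fold changes in Dnmt-null SC embryos. Their share of counts was by far the largest in Dnmt-null replicate 2. Of the 78 listed miRNAs of the family 51 were tested, 13 rose and 0 fell (9.98 and 8.89% of all tested miRNAs did). None had an adjusted p under 0.05, and the median log2 fold change was 1.19. All Dnmt-null libraries lay above all WT libraries for 20 of the 51 (14.1% of all tested miRNAs). Without Dnmt-null replicate 2, 4 of 51 rose with a median of 0.57, and without WT-SC replicate 3, 16 rose. The family took 3.53, 5.76 and 0.60% of counts in WT-SC and 4.20, 15.9 and 4.72% in Dnmt-null SC (exact permutation test, p = 0.4). In DKO-SC, where the methyltransferases were not edited, it took 5.92, 6.48 and 5.67%, above Dnmt-null replicates 1 and 3. In natural Epi 0 of 34 rose and 3 fell. The difference from natural Epi had an unadjusted p under 0.05 for 19 of 42 members, none after adjustment.

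miR-467a-5p, the most abundant Sfmbt2 miRNA that is also enriched in Exe, was at 2079, 2117 and 806 in WT-SC and at 2815, 6292 and 2326 in Dnmt-null SC. In DKO-SC it was at 3209, 3366 and 2931. From WT-SC to Dnmt-null SC it rose by 1.19 on the log2 scale (SE 0.47, adjusted p = 0.232), with the highest value in Dnmt-null replicate 2. It was at 0.80 without WT-SC replicate 3, where it did not pass. miR-297a-5p had 0 counts in each WT library and 0, 36 and 17 counts in the Dnmt-null libraries, at least 5.06-fold higher on average when WT is set to 3 counts per library. In DKO-SC miR-297a-5p was at 42.9, 37.1 and 20.1 normalized CPM. Near-identical members of this family can share reads, so single members are uncertain. The 28 Exe miRNAs, which overlap with this family, gave 9 that rose, 4 without Dnmt-null replicate 2. The Exe share of that library, 4.22%, was below the 5.73 to 7.98% of the Exe control libraries. Exe controls held 19.1 ± 4.85% Sfmbt2 miRNAs and Epi controls 5.37 ± 3.74% (SD, n = 4 each).

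Smaller families of early embryos moved in both directions. Of the miR-106b-25 and miR-106a-363 clusters, which share seeds with miR-17-92, 12 were tested and 3 fell, 7 without WT-SC replicate 3. Of all tested miRNAs 8.89% fell, and 13.3% without that library. miR-363-3p was at 14308, 15486 and 8640 in WT-SC and at 7144, 4495 and 8993 in Dnmt-null SC (-0.90, SE 0.36). It fell by 1.22 without replicate 3 (adjusted p = 0.0132) and by 0.91 in natural Epi. miR-18b-5p fell too, from 81.5, 72.1 and 96.7 to 12.6, 44.9 and 48.1 normalized CPM. The lists go by name, and miR-92a-2-5p, listed with miR-17-92, comes from Mir92-2 on the X chromosome, beside Mir363. It fell by 1.40, from 652, 1355 and 2117 to 587, 324 and 646, and by 1.08 without WT-SC replicate 3. Counted by gene position, 4 of 13 tested miRNAs of the miR-106b-25 and miR-106a-363 clusters fell, and 8 without that library.

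Of 10 tested miRNAs of miR-17-92, a cluster of chromosome 14 that promotes proliferation, 1 rose and 1 fell by gene position, and 0 rose and 4 fell without WT-SC replicate 3. Those that come from both clusters were counted here. miR-92a-3p, among the most abundant miRNAs of both groups, was at 46574, 45127 and 48146 in WT-SC and at 46081, 29146 and 34582 in Dnmt-null SC and did not pass (-0.35, SE 0.30). Of the let-7 and miR-98 family, which builds up during differentiation, 9 were tested and 2 rose (9.98% of all tested miRNAs did). let-7f-5p was at 511, 296 and 451 in WT-SC and at 997, 610 and 622 in Dnmt-null SC. let-7g-5p was at 81.5, 23.4 and 75.2 against 88.3, 173 and 135. Both also rose without WT-SC replicate 3, and neither passed with only the 2 groups or without WT-SC replicate 2. The family took 0.152 ± 0.018% of counts in WT-SC and 0.236 ± 0.012% in Dnmt-null SC (SD, n = 3 each, exact permutation test, p = 0.1).

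The direction of change was compared over 389 miRNAs tested in SC embryos and in natural Epi, which share no library. Of the 73 that passed in SC embryos 53 (72.6%) had the same sign in natural Epi, against 50.6% of all 389. Among those that rose 27 of 38 (71.1%) were positive in natural Epi, where 42.9% of all were, and 15 also passed there (14.7% of all 389 did). Among those that fell 26 of 35 (74.3%) were negative in natural Epi, where all but those 42.9% were. Of these 35, 9 also passed there (11.3% of all 389 did). Those that passed in opposite directions were 3, namely miR-423-5p (-2.25 in SC embryos and 1.26 in natural Epi), miR-92b-3p (-1.29 and 1.36) and miR-92a-2-5p (-1.40 and 0.89). Without WT-SC replicate 3, miR-423-5p was at -0.49 and miR-92b-3p at -0.53 in SC embryos, and neither passed. With the replicate block in natural Epi, miR-92a-2-5p was at 0.76 there and did not pass, which left 2 in opposite directions.

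Without WT-SC replicate 3, 95 of 118 (80.5%) had the same sign, against 65.8% of all, and 1 passed in opposite directions. The log2 fold changes of the 2 kinds of embryo correlated across miRNAs at r = 0.24 (Spearman's rho 0.17), and at r = 0.41 (rho 0.39) without that library. miRNAs of one cluster are not independent, so these values describe the libraries. The share depended on other libraries as well. It was 55.1% without Dnmt-null replicate 1, 58.4% without WT-SC replicate 2 and 90.2% without Dnmt-null replicate 2. The difference between the SC and natural fold changes was tested for 447 miRNAs in 1 fit. None had an adjusted p under 0.05 in edgeR, 63 passed at the unadjusted threshold, 25 higher in SC embryos (5.59%) and 38 lower (8.5%), and DESeq2 called 5 after adjustment. Leaving out WT-SC replicate 3 gave 491 tested, none after adjustment, and 47 at the unadjusted threshold (9.57%), 34 higher (6.92%) and 13 lower (2.65%).

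**Figure D5:**
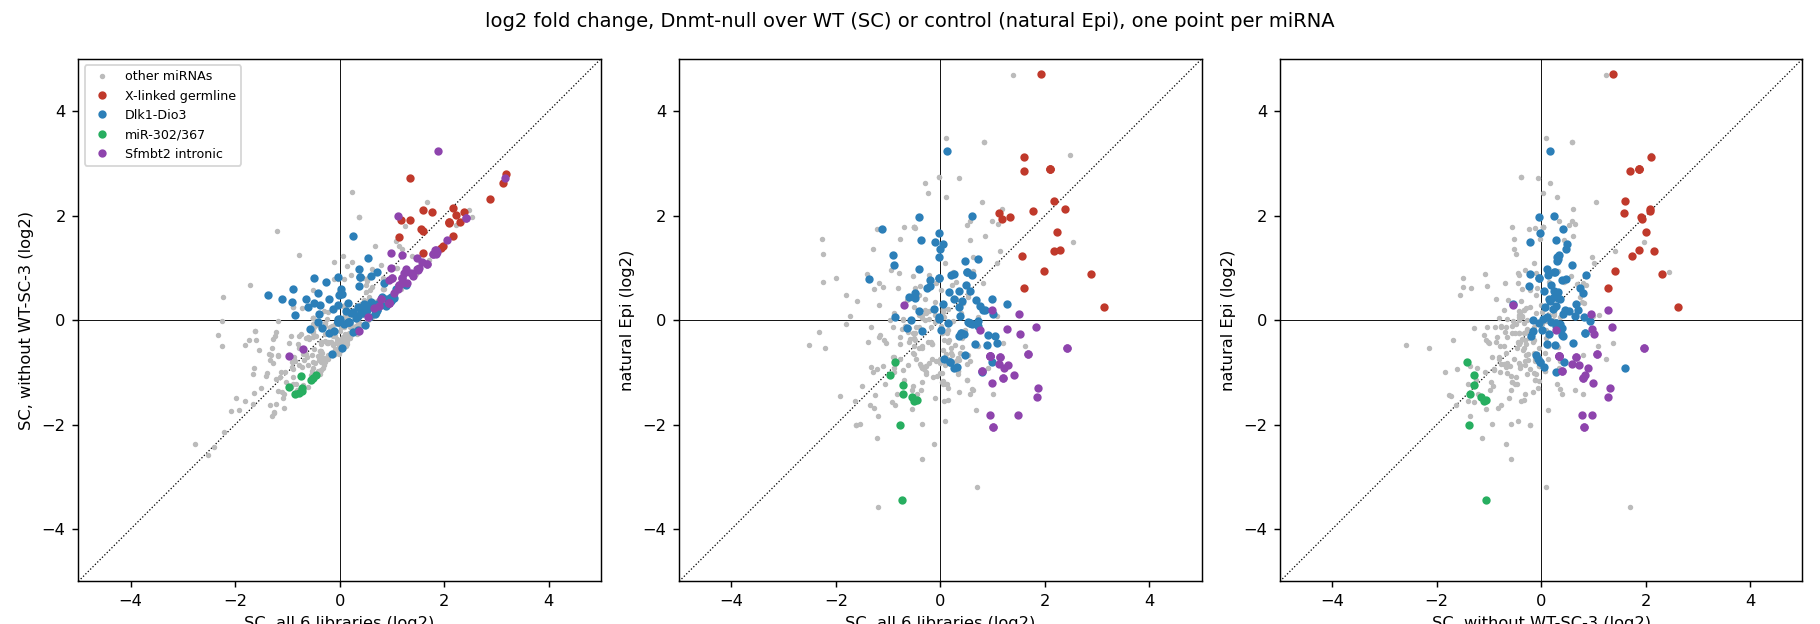
Log2 fold changes, 1 point per miRNA, for SC embryos with all 6 libraries against SC embryos without WT-SC replicate 3 (left), and for natural Epi against both SC fits (middle and right). The X-linked germline miRNAs (red) lie above 0 on both axes of all 3 panels, the miR-302 miRNAs (green) lie below 0 on both, and the Sfmbt2 miRNAs (purple) lie mostly above 0 in SC embryos and below 0 in natural Epi.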

How the data were processed

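Small RNA libraries were made by CAS-seq from 100 pg of RNA and sequenced on an Illumina NovaSeq. The authors trimmed reads with fastp 0.20.1, kept lengths of 15 to 40 bases, aligned them to the GRCm38 genome by Bowtie 1.2.1.1, counted those on miRBase 21 mature miRNAs with some slack at the 3′ end, and the deposited values are raw counts per mature miRNA. PCR copies were not collapsed as far as stated, so counts carry counting error and amplification error. Their tests used DESeq2 1.30.1.

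Here groups came from sample titles, 0 columns lacked a sample, and counts were tested in R 4.3.3 with edgeR 4.0.16 (TMM, filterByExpr with a minimum of 10, quasi-likelihood test, Benjamini-Hochberg adjustment) on the 9 SC libraries at E6.5. The natural fit held 16 Epi libraries and the fit of the difference 14. Standard errors are the fold change over the root of F. On simulated counts with 4-fold changes for this comparison (466 miRNAs tested), 87.2% of 195 changed miRNAs and 5.9% of unchanged ones passed. By the adjusted test these were 77.9% and 1.85%. The simulated libraries shared a common mean profile, so none stood apart as WT-SC replicate 3 did, and smaller changes were not simulated. These values therefore do not give the power of the real comparison. Nothing says that replicates were separate litters, so p-values measure the spread between libraries, which may be technical. Shares were compared by two-sided exact permutation tests. Mature sequences of 1275 of 1504 miRNAs matched RefSeq. Counts were identical for 28 pairs and 1 triple of tested miRNAs.

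The miRNAs named were those of the genes the study names in its small RNA results, up to 10 per direction with the largest adjusted, non-overlapping changes and at least 50 CPM, the 5 most abundant per group, and the most abundant and most changed member of each list, where small lists without a call are given by their counts. Differences between SC and natural embryos past the adjusted threshold were to be named too, and there were none. The few others named were picked with values in view. The members and lists were chosen with earlier results of these data known. Alternatives covered DESeq2 1.42.0, other scalings and filters, only the 2 groups, a replicate block and leaving out each library. Deviations of same-numbered natural control and Dnmt-null libraries correlated at r = 0.14, 0.11, 0.28 and 0.22 across miRNAs. Differently numbered ones were not compared and the labels give no pairs, so whether the numbers are pairs is not known. They were taken as pairs only as an alternative, and the block left 75.3% with the same sign. The natural fit is without the block, and its value stands beside a result where it changes a call or moves a count by over 1.5 times.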

Additional observations from a re-analysis of the deposited data

How the results depend on the processing

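Depth limits the low miRNAs, since 3 counts correspond to 5.74 to 19.5 CPM, and 3 libraries per group, 1 of which stood apart, limit the rest. The X-linked germline increase kept its count within 1.5 times (16 to 24 when 1 library was left out), and fell to 6 by the adjusted test. That adjusted count was 0 with only the 2 groups, with a replicate block, and without Dnmt-null replicate 1, Dnmt-null replicate 3 or WT-SC replicate 1. With only the 2 groups and without WT-SC replicate 3, all 24 passed and 0 of 24 were called after adjustment. Settings that moved a count follow, the cause not tested. The 46 higher miRNAs became 94 without a low-count filter, 19 with only the 2 groups, 7 by the adjusted test and 40 to 73 when 1 library was left out. The 41 lower became 23 with TMM without the Dlk1-Dio3 miRNAs, 22 with only the 2 groups, 26 with a replicate block, 0 by the adjusted test and 17 to 67 when 1 library was left out (17 without Dnmt-null replicate 2). TMM without the Dlk1-Dio3 miRNAs shifted the median of all miRNAs by 0.13, so that 72.0% in place of 52.9% of those that passed were higher. Leaving out Dnmt-null replicate 2 shifted it by 0.13 as well. The 2 Dlk1-Dio3 miRNAs that rose became 4 with DESeq2, 5 with TMM without these miRNAs, 1 with identical counts taken once, 6 without a filter, 0 with only the 2 groups, 0 by the adjusted test and 0 to 12 when 1 library was left out (0 without Dnmt-null replicate 2, 1 without Dnmt-null replicate 3, 5 without WT-SC replicate 2, 6 without WT-SC replicate 1 or Dnmt-null replicate 1, 12 without WT-SC replicate 3), and those that fell became 1 without a filter and 0 to 4 (4 without WT-SC replicate 2). The share difference of 3.05 points ranged from -0.76 to 10.2 and was -0.31 without WT-SC replicate 1. The 1 lower miR-302 cluster miRNA became 0 with TMM without the Dlk1-Dio3 miRNAs, without a filter and by the adjusted test, 9 with only the 2 groups and without WT-SC replicate 3 (0 after adjustment), and 0 to 9 when 1 library was left out (0 without Dnmt-null replicate 1 or 2 or WT-SC replicate 2). The same-sign share of 72.6% became 46.9% without a filter, 55.1 to 90.2% when 1 library was left out, 82.1% without WT-SC replicate 3 and E6.5-TKO-epi replicate 1 together, the shallowest library with 45242 counts, and 100% by the adjusted test, over 130, 51 to 118, 123 and 7 miRNAs. The 0 miRNAs whose SC and natural changes differed became 5 with DESeq2, 3 without a filter, 0 to 2 when 1 library was left out (2 without WT-SC replicate 2) and 63 by the unadjusted p.

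Among named miRNAs the sign turned for those near 0 or led by WT-SC replicate 3. With that replicate left out, miR-541-5p went from -1.11 to 0.41, miR-409-5p from -0.89 to 0.60, miR-370-3p from -0.21 to 0.40 and miR-295-3p from 0.34 to -0.27. With only the 2 groups as well, the values were 0.41, 0.60, 0.41 and -0.27, and 0.48 for miR-127-3p and 0.83 for miR-300-3p. miR-127-3p was at 0.15 with TMM without the Dlk1-Dio3 miRNAs, 0.0226 with a mean of at least 10 counts, 0.20 without a filter and 0.0655 with a replicate block. miR-370-3p was at 0.0161 without a filter. miR-300-3p was at 0.13, 0.21 without a filter and 0.18 with the block. let-7b-5p was at -0.0636 with only the 2 groups and -0.0952 with the block. When 1 library was left out the ranges were -0.28 to 0.48 for miR-127-3p, -1.63 to 0.41 for miR-541-5p, -1.39 to 0.60 for miR-409-5p, -0.0679 to 0.36 for miR-409-3p, -0.55 to 0.40 for miR-370-3p, -0.43 to 0.82 for miR-300-3p, -0.27 to 0.72 for miR-295-3p and -0.91 to 0.46 for let-7b-5p. Of the values of named miRNAs under all alternatives, 750 kept direction and call, 159 lost the call, 37 gained it and 28 changed sign. Deviations of WT-SC and Dnmt-null SC libraries with the same number correlated at r = -0.26, 0.42 and 0.06, and those of differently numbered ones at -0.36 to 0.33. The numbers were therefore not taken as pairs. The replicate block gave 52 higher and 26 lower miRNAs with 0 after adjustment, and 21 Sfmbt2 miRNAs that rose in place of 13. In natural Epi the replicate block changed no call of a single miRNA whose natural value is printed, except let-7b-5p and miR-92a-2-5p.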

Other observations

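Outside the germline cluster, 39 miRNAs of the X chromosome were tested in SC embryos, of which 1 rose and 9 fell (9.98 and 8.89% of all tested miRNAs did). Their median log2 fold change was -0.40. Without WT-SC replicate 3, 1 rose and 13 fell of 42 (14.5 and 13.3% of all), with a median of -0.60. The one that rose was miR-672-5p, at 188, 115 and 279 normalized CPM in WT-SC and at 322, 533 and 404 in Dnmt-null SC. In natural Epi 5 rose and 5 fell of 35 (14.9 and 11% of all), and 2 rose and 6 fell with the replicate block. The miRNAs encoded in Ftx (chrX:103560907-103623790, GRCm38), a non-coding gene of the X inactivation centre, were singled out after their values were seen. All 3 tested ones fell. miR-421-3p was at 2587, 4004 and 860 in WT-SC and at 959, 1043 and 1110 in Dnmt-null SC. Its log2 fold change was -1.26 with all libraries, -1.76 without WT-SC replicate 3 (adjusted p = 0.010) and -1.44 in natural Epi. miR-374b-5p was at 1602, 1836 and 838 against 713, 626 and 920, and miR-374c-5p at 285, 337 and 124 against 107, 112 and 106. WT-SC replicate 3 was within or near the Dnmt-null range in all 3. In natural Epi 2 of the 3 fell.

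The remaining groups of miRNAs showed few changes with all 6 libraries. Of miRNAs of mesenchymal (5 tested), neural (6), and blood or endothelial cells (10), of the Hox clusters (1), of the imprinted Gnas and Mest genes (6), of Igf2-H19 (2) and of the miR-183 cluster (5), none passed, and no muscle miRNA was tested. Of the miR-200 family 1 of 8 fell, of the cluster of miR-322 2 of 9, of miR-15 and miR-16 1 of 5, of miR-29, miR-148 and miR-152 2 of 5 and of miR-99, miR-100 and miR-125 1 of 7, and of miR-34 1 of 2 rose. Of all tested miRNAs 9.98% rose and 8.89% fell. The members that passed in these lists, by the largest change, and in miR-17-92 were miR-99b-5p (-1.60 with all libraries and -0.38 without WT-SC replicate 3), miR-148a-5p (-1.54 and -0.57), miR-450a-1-3p (-1.34 and -1.63), miR-200b-5p (-1.27 and -0.37), miR-15b-5p (-0.87 and -0.72), miR-34c-5p (1.47 and 0.88) and miR-19a-3p (1.01 and 0.81), as log2 fold changes. miR-99b-5p was at 14785, 15266 and 82242 normalized CPM in WT-SC and at 18648, 6327 and 12184 in Dnmt-null SC, with WT-SC replicate 3 far above the other 5 libraries. miR-26a-5p, among the most abundant miRNAs, was at 33718, 35067 and 57420 in WT-SC and at 37088, 21247 and 29812 in Dnmt-null SC and did not pass (-0.52, SE 0.35). The imprinted miR-296-3p of the Gnas locus was at 1223, 1506 and 3132 in WT-SC and at 1420, 1296 and 1447 in Dnmt-null SC and did not pass (-0.49, SE 0.36).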
